A study of Mus musculus with 13 samples.

Results

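The 7 caspase genes Casp1, Casp2, Casp4, Casp6, Casp8, Casp9 and Casp12 were followed on 13 arrays of sorted mouse bone marrow cells. They were read from the probe sets listed with exactly 1 of these genes, 77 of the 208397 probe sets with 1 gene, and the 7 genes were among 15121 genes with at least 3 such probe sets. The set was chosen partly because Casp12 was lower in KLS cells of mice with the PML-RARA fusion than in wild-type KLS cells. Every mCG-PR against WT comparison in KLS is therefore given for these genes as a description, with no test.

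Each array held RNA of 1 mouse, from both femurs and the tibia, all of strain Bl/6 Taconic. Mice labelled mCG-PR N17 carried PML-RARA in the murine Ctsg locus, so the fusion was under control of a gene of early myeloid cells, and they were set against wild-type mice (WT). KLS is the usual name for lineage-negative marrow cells with Kit and Sca1, a mixture of stem and multipotent progenitor cells, and SLAM for a gate on SLAM family receptors that enriches stem cells. The labels name these populations without their gates. WT KLS cells came from 4 mice, 2 aged 13 weeks and 2 aged 12 weeks. The mCG-PR KLS cells came from 3 mice aged 6 weeks and from 2 aged 13 weeks. SLAM cells came from 2 WT mice aged 6 weeks and from 2 mCG-PR mice aged 7 weeks. No WT KLS array of 6 weeks was analysed here, so age and genotype cannot be told apart for the youngest mCG-PR KLS mice.

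Caspases are cysteine proteases that are made as inactive precursors and cut their targets after aspartate. Initiator caspases are activated in large complexes, such as the death receptor complex for Casp8, the apoptosome for Casp9 and the PIDDosome for Casp2, and executioners such as Casp6 then cut structural proteins. Casp1 and Casp4 belong to the inflammatory branch, in which inflammasomes sense microbial products and release cytokines, and Casp12 is a relative of these that has been linked to the endoplasmic reticulum and to restraint of inflammatory caspases.

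Casp1, Casp4 and Casp12 lie next to each other on chromosome 9 in the RefSeq gene order, and the 3 genes on the other side of Casp12, all listed as pseudogenes, were not measured. Casp8 lies on chromosome 1, Casp6 on 3, Casp9 on 4 and Casp2 on 6. The promoter windows of the 3 neighbours are shown because Casp12 stood apart from Casp1 and Casp4 on the KLS arrays although they share this locus. Each window runs from 250 bases before to 50 bases after the RefSeq start, 5′ to 3′ on the plus strand of GRCm38.p6, and capitals mark the only motif match. Casp12 lies at chr9:5345226-5345525, Casp4 at chr9:5308599-5308898 and Casp1 at chr9:5298267-5298566.
Casp12: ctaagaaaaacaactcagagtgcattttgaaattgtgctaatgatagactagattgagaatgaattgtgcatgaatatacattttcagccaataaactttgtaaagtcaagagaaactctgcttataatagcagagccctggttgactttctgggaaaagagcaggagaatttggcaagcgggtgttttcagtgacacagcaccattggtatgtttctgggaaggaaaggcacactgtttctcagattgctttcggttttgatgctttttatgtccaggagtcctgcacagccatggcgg
Casp4: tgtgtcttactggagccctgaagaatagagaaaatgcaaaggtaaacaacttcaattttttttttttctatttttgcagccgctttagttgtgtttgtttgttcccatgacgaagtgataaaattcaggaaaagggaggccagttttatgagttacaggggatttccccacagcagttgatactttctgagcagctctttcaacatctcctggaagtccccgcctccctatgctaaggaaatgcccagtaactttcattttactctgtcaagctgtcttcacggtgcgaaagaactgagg
Casp1: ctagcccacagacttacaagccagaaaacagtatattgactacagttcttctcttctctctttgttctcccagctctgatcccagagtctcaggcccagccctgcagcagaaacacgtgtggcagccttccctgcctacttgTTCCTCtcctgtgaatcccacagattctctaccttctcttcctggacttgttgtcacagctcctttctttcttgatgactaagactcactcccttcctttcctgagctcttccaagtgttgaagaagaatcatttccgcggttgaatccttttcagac

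These windows were searched on both strands for the nuclear receptor half-site, in the spelling AGGTCA, the spelling AGTTCA, the spelling GGGTCA and the spelling GGTTCA. They were also searched on both strands for GAGGAA, a spelling of a site for the Ets factor PU.1. Shorter or other spellings of Ets sites were not searched, so the result does not cover them. Neither the Casp12 nor the Casp4 window held any of the searched spellings. The Casp1 window held 1, GAGGAA on the opposite strand (TTCCTC), at position −108 from the start. Of 32851 windows of the same length, 28.3% held GAGGAA and 43.7% held at least 1 of the half-site spellings. The Casp12 window was 41% G and C, the Casp4 window 42% and the Casp1 window 48%, against a median of 52.7% over all windows. A match is only a run of letters, and none of these arrays measured binding.

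Values are log2 of the deposited intensity, with each gene summarised on every array by the median of its probe sets. Probe sets differ in brightness, so levels were compared between arrays and never between genes. All 7 genes passed the filter on low values (a mean above log2 6.00 over the 13 arrays), as did 10584 genes in all. Of the 77 caspase probe sets, 64 passed the same kind of filter at the level of probe sets, including all 11 of Casp1, all 9 of Casp8, 12 of 13 of Casp2, 9 of 10 of Casp4, 11 of 15 of Casp9, 7 of 11 of Casp12 and 5 of 8 of Casp6. The array medians lay between 98.6 and 115.3 on the linear scale. The pooled SD within groups had a median over genes of 0.22 in KLS and 0.33 in SLAM.

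Marker genes were set against the labels. The long-term stem cell list, 8 of 8 genes measured, averaged 8.41 to 8.74 on the WT SLAM arrays and 7.61 to 7.88 on the WT KLS arrays. Slamf1, the SLAM receptor itself, was likewise higher in WT SLAM, at 7.58 ± 0.15 (SD, n = 2) against 5.87 ± 0.46 (SD, n = 4). In mCG-PR SLAM it was 6.42 ± 0.29 (SD, n = 2), which overlapped WT KLS. Both of these arrays lay below the WT SLAM arrays, as for 18.8% of all genes. The long-term stem cell list averaged 8.49 to 8.62 on the mCG-PR SLAM arrays. Ctsg, which houses the fusion, and Pml and Rara, its partners, passed no test between mCG-PR and WT (limma adjusted p of 0.678, 0.607 and 0.585 in KLS). Late neutrophil genes, 10 of 10 measured, averaged 10.59 on WT SLAM replicate 2 and 8.47 on replicate 1. The Y-linked genes Eif2s3y and Kdm5d averaged 4.23 to 4.28 on both mCG-PR SLAM arrays and 4.53 on the third mCG-PR KLS array of 6 weeks, against 7.67 to 8.48 on the other 10, so in SLAM the genotype and the Y-linked signal cannot be told apart.

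**Figure D1:**
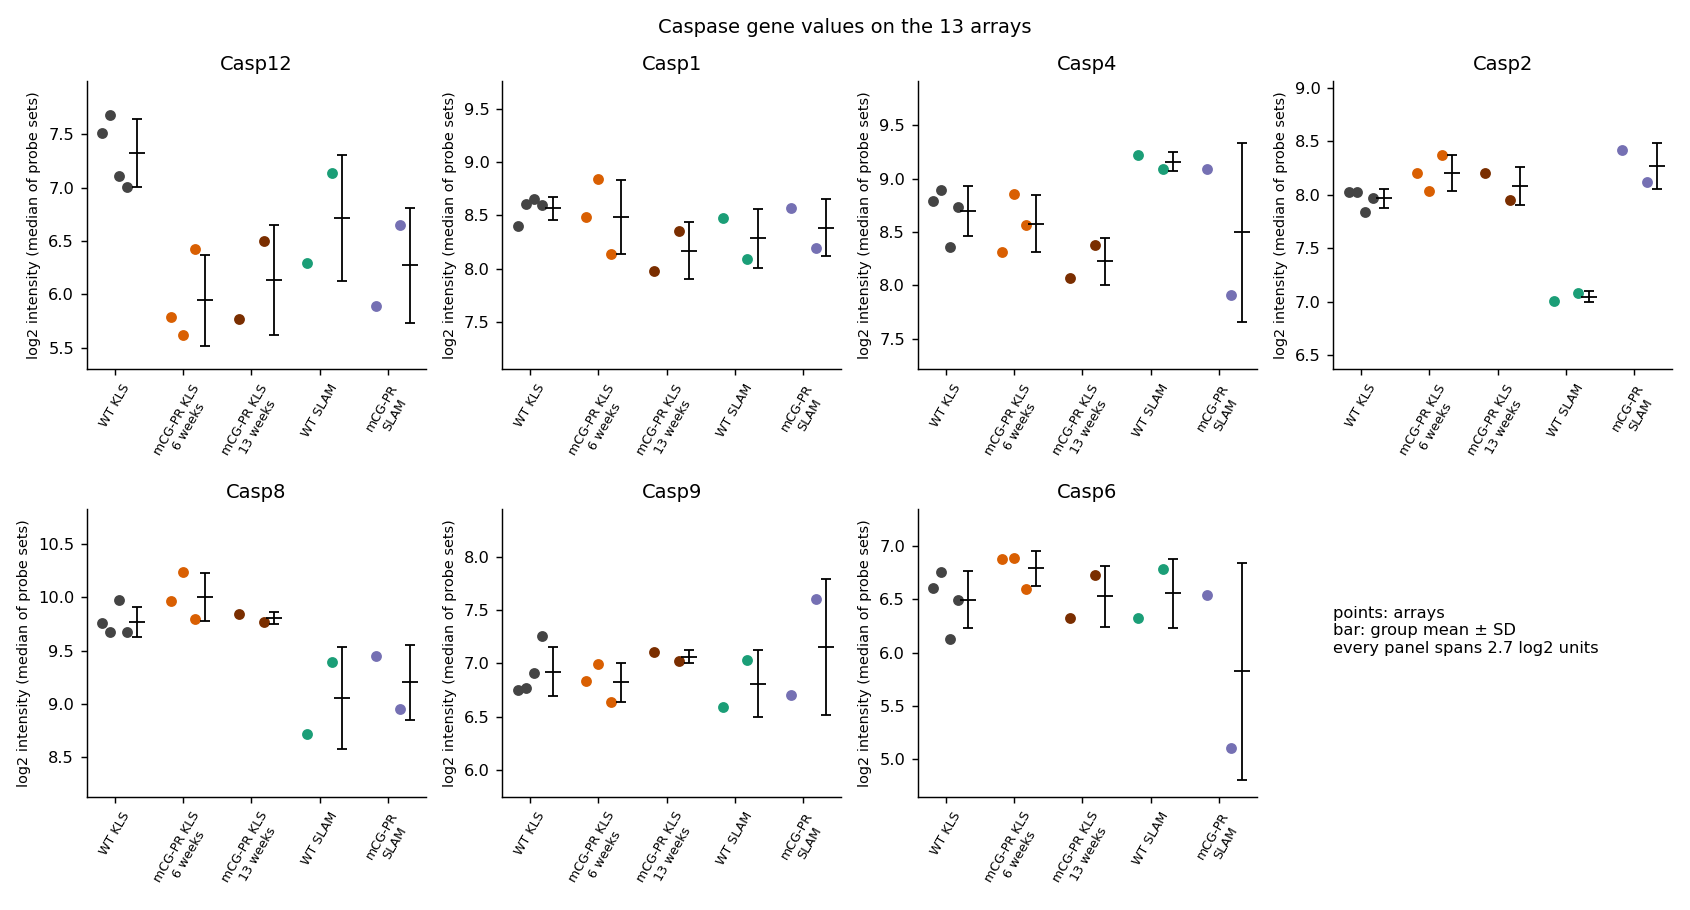
Log2 intensity of the 7 caspase genes (y axis, median of the gene's probe sets) in the 5 groups (x axis); each point is an array and each bar a group mean ± SD. The 4 WT KLS arrays of Casp12, from 7.01 to 7.68, lie above all 5 mCG-PR KLS arrays, from 5.62 to 6.50. The 2 WT SLAM arrays of Casp2, at 7.01 and 7.08, lie below all others. Over all genes, 0.652% lay wholly lower in mCG-PR KLS and 22.3% wholly lower in WT SLAM, each against WT KLS.

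Casp12 was the caspase with the lowest values in mCG-PR KLS cells relative to WT. Its log2 intensity was 7.51, 7.68, 7.11 and 7.01 on the WT KLS arrays. It was 5.79, 5.62 and 6.43 on the mCG-PR KLS arrays of 6 weeks and 5.77 and 6.50 on those of 13 weeks. Both ages lay wholly below WT, as did 1.54% of all genes at 6 weeks and 10.2% at 13 weeks, and they overlapped each other. The mean difference was −1.30 ± 0.20 (SE from limma, n = 5 and 4), or 2.47-fold lower, with −1.38 at 6 weeks and −1.19 at 13 weeks. None of the other 6 caspases separated the groups in the pooled comparison, and over all genes 0.652% lay wholly lower in mCG-PR KLS and 3.55% wholly higher. The median difference over all genes was 0.09.

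The size of the Casp12 difference depended on how its probe sets were combined. With the mean of the 11 probe sets in place of their median it was −0.64, and with only the 7 probe sets that passed the filter it was also −0.64. On the mean scale the WT KLS arrays spanned 6.28 to 6.69 and the mCG-PR KLS arrays 5.55 to 6.37, so the groups overlapped. Different probe sets supplied the median on different arrays: on WT KLS replicate 3 it was 7.11, with the next lower probe set at 5.54 and the next higher at 7.60.

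Probe set by probe set, 9 of the 11 for Casp12 were lower in mCG-PR KLS and 2 were higher, with differences from −1.51 to 0.23 and a median of −0.60. All 7 that passed the filter were lower, by −0.40 to −1.12. Probe set 5374976 was the only one whose groups did not overlap (0.681% of all probe sets lay wholly lower): it read 7.71, 7.68, 7.70 and 7.15 on the WT KLS arrays, 5.79, 5.58 and 6.99 on the mCG-PR arrays of 6 weeks and 7.05 and 6.80 on those of 13 weeks. Probe set 5505080 read 8.08, 7.84, 7.11 and 7.13 in WT KLS, then 6.05, 5.62 and 7.50 at 6 weeks and 6.80 and 6.50 at 13 weeks. In both, the third mCG-PR array of 6 weeks was closest to WT of its group. That array was also the one with low Y-linked signal, and without it the gene-level difference was −1.41. The dim probe set 4571858 had the widest difference, −1.51, but its 4 WT arrays spread from 5.54 to 7.93.

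**Figure D2:**
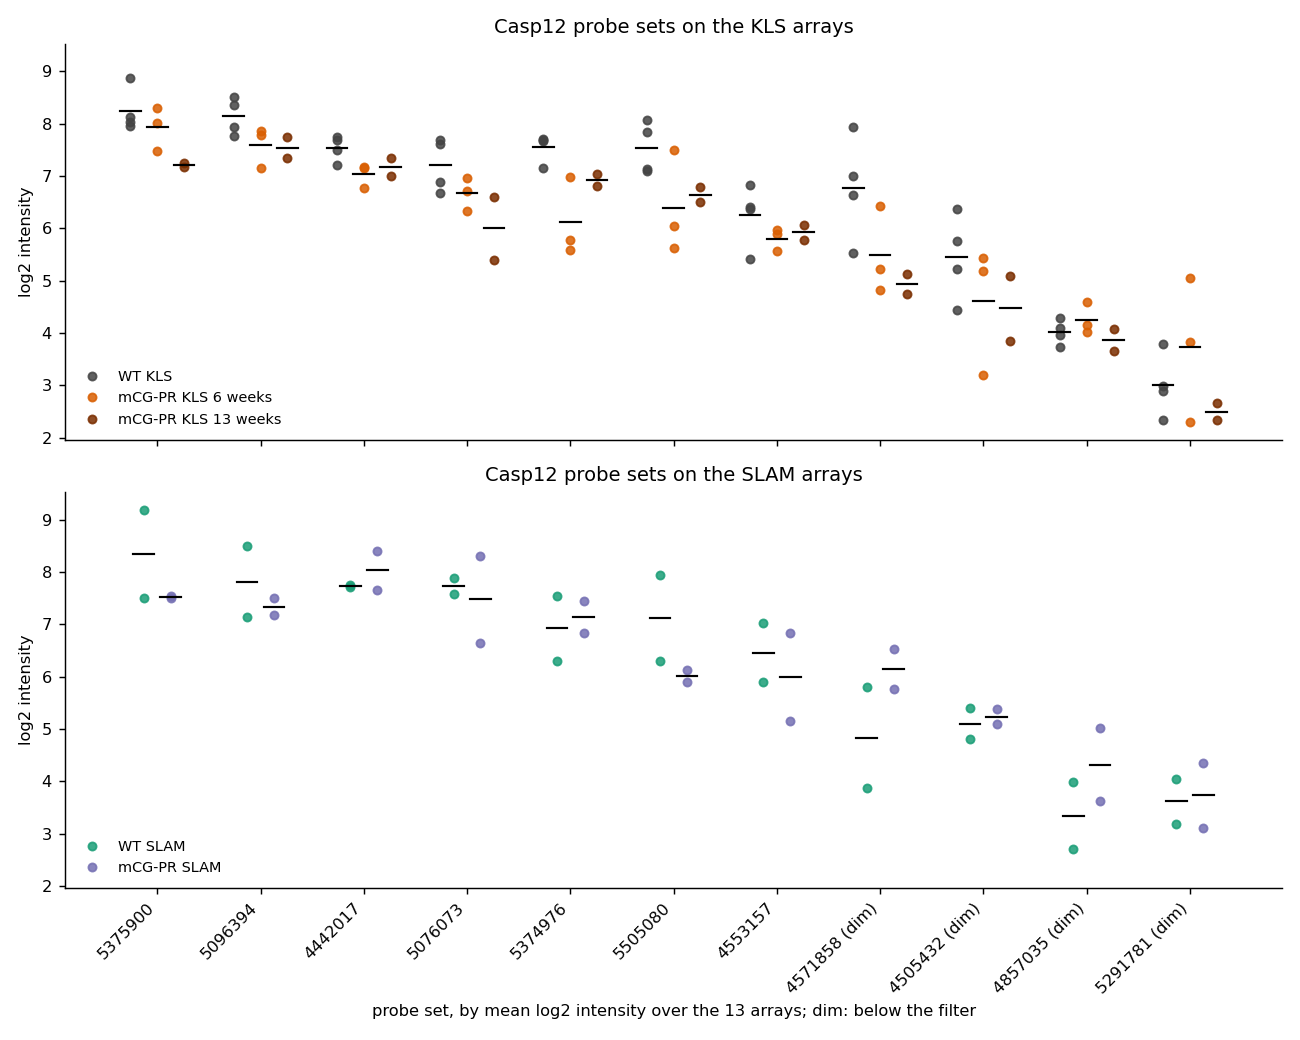
Log2 intensity (y axis) of the 11 Casp12 probe sets (x axis, brightest first) on the KLS arrays (top) and the SLAM arrays (bottom); points are arrays and bars group means. The WT KLS mean is above the mCG-PR KLS means at both ages for all 7 probe sets that passed the filter, whereas the WT SLAM mean is above the mCG-PR SLAM mean for 5 of these 7.

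In SLAM cells the test of Casp12 was independent of its choice, and it did not pass. Casp12 read 6.30 and 7.14 on the WT SLAM arrays and 5.89 and 6.65 on the mCG-PR SLAM arrays, so the groups overlapped. The difference was −0.45 ± 0.44 (SE), with 95% limits of −1.54 and 0.65 (limma adjusted p = 0.922). The limits include both 0 and the KLS value of −1.30. With the mean of the probe sets it was −0.007, from group means of 6.28 and 6.27. Leaving out WT SLAM replicate 2, the array with the high neutrophil list, gave −0.03, and leaving out replicate 1 gave −0.86. No member passed in this comparison, in which 0% of all genes did, and 664 genes had an unadjusted p under 0.05.

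Within the mCG-PR KLS mice, whose arrays the choice of Casp12 used, Casp12 did not pass between the ages. The difference of 13 against 6 weeks was 0.19 ± 0.28 (SE, limma adjusted p = 0.821, n = 2 and 3), and 95% limits ran from −0.41 to 0.79. Its sign turned with the mean of the probe sets (−0.22). Between the WT populations, Casp12 was 6.72 ± 0.59 (SD, n = 2) in SLAM and 7.33 ± 0.32 (SD, n = 4) in KLS, a difference of −0.61 ± 0.42 (SE, limma adjusted p = 0.503). These WT KLS arrays are the ones that the choice of Casp12 used. From the highest to the lowest mean, the groups ran WT KLS, WT SLAM, mCG-PR SLAM, mCG-PR KLS of 13 weeks and mCG-PR KLS of 6 weeks, and each neighbouring pair in that order overlapped.

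Casp1, the protease of the canonical inflammasome that matures interleukin precursors, varied little in its gene value. It read 8.40, 8.61, 8.65 and 8.60 in WT KLS, then 8.48, 8.84 and 8.14 at 6 weeks and 7.98 and 8.36 at 13 weeks in mCG-PR KLS. Both arrays of 13 weeks lay below all WT arrays, a difference of −0.40 ± 0.20 (SE), as 10.2% of all genes did in that comparison, whereas the 6-week arrays straddled WT (−0.08 ± 0.18, SE). The pooled difference was −0.21. Of its 11 probe sets, 8 were lower and 3 higher in mCG-PR KLS. In SLAM it read 8.48 and 8.09 in WT and 8.57 and 8.20 in mCG-PR (0.10 ± 0.32, SE, limma adjusted p = 0.983), and the mean of its probe sets gave −0.31 instead. Of the 11 probe sets, 3 were higher and 8 lower in mCG-PR SLAM, and 3 of the 8 did not overlap (17.2% of all probe sets). The 2 mCG-PR SLAM arrays disagreed on the brightest, 4695840, at 11.08 and 8.92. For the Casp1 gene value, all neighbouring groups in the order of the means overlapped.

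Casp4, the mouse sensor of bacterial lipopolysaccharide in the cytosol, had its highest values in WT SLAM. It read 9.22 and 9.09 there against 8.79, 8.89, 8.36 and 8.73 in WT KLS, without overlap (12.9% of all genes lay wholly higher), but the difference of 0.46 ± 0.33 (SE) did not pass (limma adjusted p = 0.521). In mCG-PR SLAM it read 9.09 and 7.91, a difference of −0.66 ± 0.45 (SE, limma adjusted p = 0.883), and 18.8% of all genes lay wholly lower in that comparison. The first mCG-PR SLAM array almost reached the lower WT array, and the second was over 1 log2 unit below it. All 10 Casp4 probe sets were lower in mCG-PR SLAM, from −0.16 to −0.98, and 6 of them did not overlap (17.2% of all probe sets). In mCG-PR KLS, Casp4 read 8.32, 8.85 and 8.57 at 6 weeks and 8.07 and 8.38 at 13 weeks. Its difference from WT KLS was −0.26 ± 0.17 (SE) over both ages and −0.47 ± 0.20 (SE) at 13 weeks, and 9 of its 10 probe sets were lower. The 3 neighbours on chromosome 9 thus all had negative differences in mCG-PR KLS, where 32.0% of all genes did, but over both ages only Casp12 lay apart from WT.

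Casp2, the protease of the PIDDosome, gave the largest differences of any caspase that the choice of members did not use. It read 7.01 and 7.08 in WT SLAM, against 8.03, 8.03, 7.84 and 7.97 in WT KLS and 8.42 and 8.12 in mCG-PR SLAM. The WT SLAM arrays lay below all 11 others, and the remaining groups overlapped their neighbours. Over all genes, 22.3% lay wholly lower in WT SLAM than in WT KLS, and the share below all 11 others was not counted. WT SLAM minus WT KLS was −0.92 ± 0.24 (SE), or 1.89-fold lower, and this passed narrowly (limma adjusted p = 0.0486, n = 2 and 4). It was the only one of the 7 caspases to pass, where 3.12% of all genes did. The call did not hold when the array medians were subtracted (adjusted p = 0.0857), nor without any 1 of the 6 arrays compared (limma adjusted p from 0.0540 to 0.242), while the difference stayed between −0.88 and −0.96. Where a WT SLAM array was left out, the lone one was assumed to vary like the other groups. The ages also differed, 6 weeks in WT SLAM and 12 to 13 weeks in WT KLS, and cannot be told apart from the population.

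Between the SLAM genotypes, Casp2 was 1.22 ± 0.29 (SE) higher in mCG-PR, or 2.34-fold, with 95% limits of 0.50 and 1.95. The groups did not overlap, as for 16.4% of all genes, and the adjusted p was 0.750 in limma (unadjusted 0.00679). Of its 13 probe sets, 10 were higher in mCG-PR SLAM and 7 of these did not overlap (17.9% of all probe sets), whereas 3 were lower. Of those 3, 2 did not overlap: the dim probe set 4378822, by −2.28, and the bright 5534480, by −0.38, which read 9.12 and 8.86 in WT SLAM and 8.42 and 8.80 in mCG-PR SLAM. Probe set 5126610 read 6.24 and 6.16 in WT SLAM, 7.58 and 8.19 in mCG-PR SLAM and between 7.84 and 8.02 in WT KLS. It was the single caspase probe set of 64 to pass between WT SLAM and WT KLS (−1.75 ± 0.35, SE, limma adjusted p = 0.0345), where 0.999% of all probe sets did. Probe sets 5137797 and 4791610 had even wider differences between the genotypes, 2.32 and 2.55, but their WT SLAM arrays disagreed, at 7.63 and 5.61 for the first and 7.66 and 4.69 for the second. In both, the lower array was replicate 2, whose late neutrophil list was high; the part of those cells in the result was not tested. With the mean of the probe sets the genotype difference was 0.59 and the population difference −0.70 (limma adjusted p of 0.762 and 0.0420).

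In KLS, Casp2 read 8.21, 8.04 and 8.37 in mCG-PR of 6 weeks and 8.21 and 7.95 in mCG-PR of 13 weeks. The 6-week arrays all lay above the highest WT KLS array, as for 9.45% of all genes, but the nearest, at 8.035, only just exceeded the 8.030 of that array. Their mean was 0.24 ± 0.14 (SE) above the WT KLS mean. The difference over both ages was 0.19 ± 0.13 (SE), with overlap, and 12 of its 13 probe sets were higher. These values are small beside the difference of WT SLAM from every other group.

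**Figure D3:**
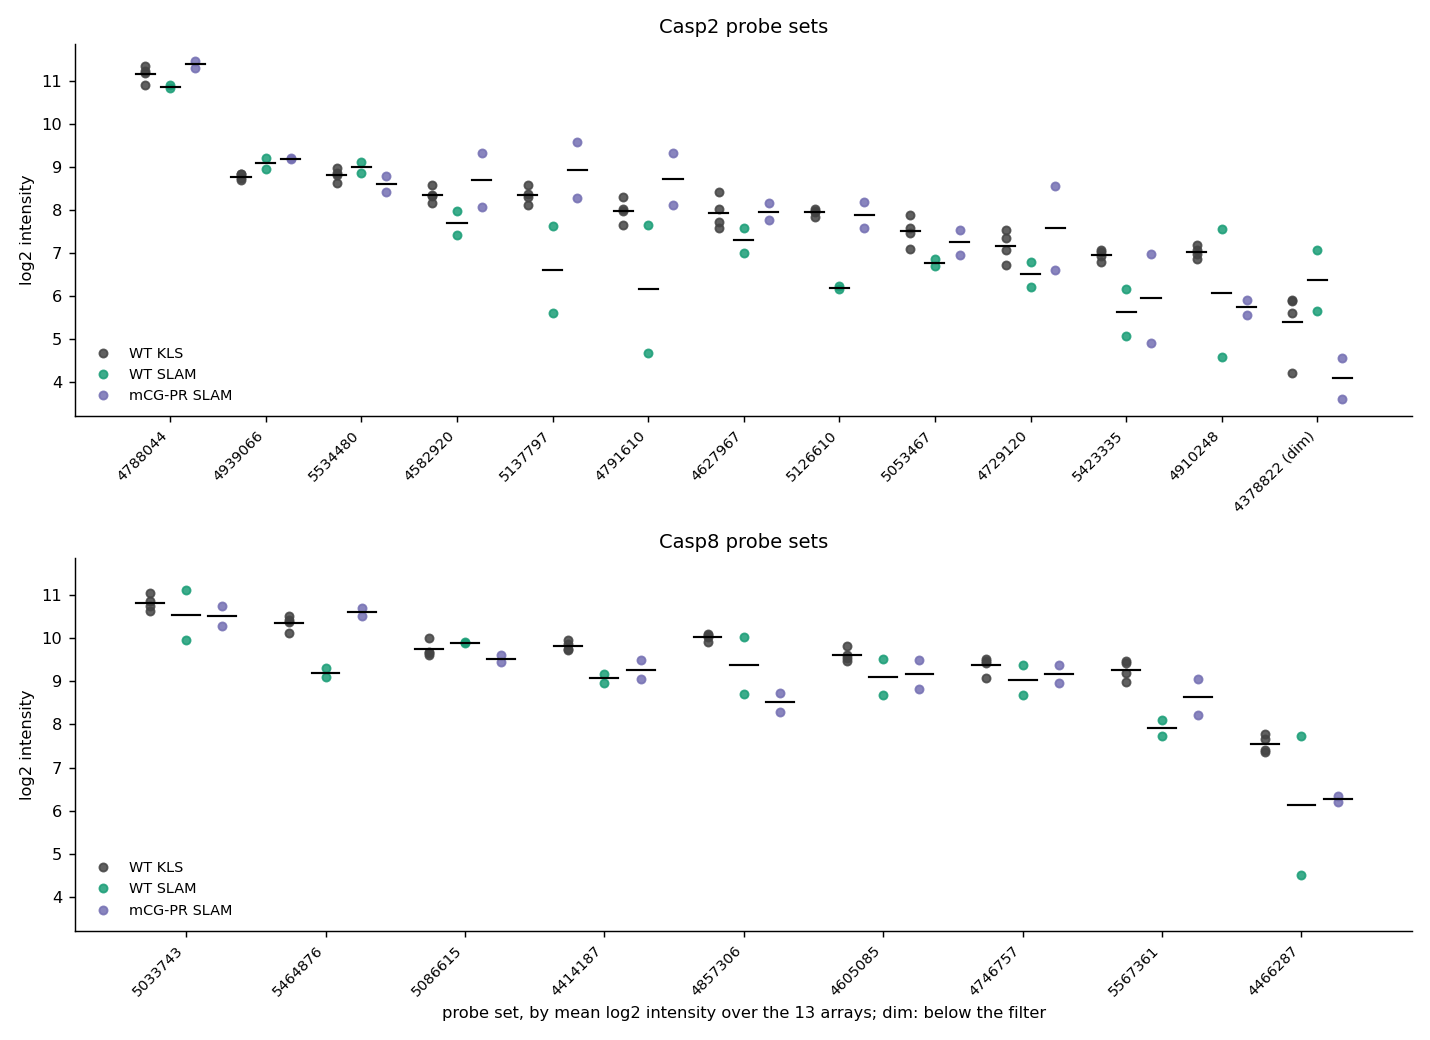
Log2 intensity (y axis) of the Casp2 (top) and Casp8 (bottom) probe sets (x axis, brightest first) on the WT KLS, WT SLAM and mCG-PR SLAM arrays; points are arrays and bars group means. The WT SLAM mean is below the WT KLS mean for 10 of 13 Casp2 and 8 of 9 Casp8 probe sets, and below the mCG-PR SLAM mean for 10 of 13 and 6 of 9.

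Casp8, the initiator recruited to death receptors, which also holds necroptosis in check, had lower values on the WT SLAM arrays than on any WT KLS array. It read 9.75, 9.67, 9.97 and 9.67 in WT KLS and 8.72 and 9.39 in WT SLAM. That difference was −0.71 ± 0.27 (SE) and did not pass (limma adjusted p = 0.174, unadjusted 0.0195), although the groups did not overlap, as for 22.3% of all genes. In mCG-PR the SLAM arrays read 9.45 and 8.95 and the KLS arrays 9.96, 10.24 and 9.80 at 6 weeks and 9.85 and 9.77 at 13 weeks, which were not tested against each other. Within SLAM the genotypes differed by 0.15 ± 0.37 (SE, limma adjusted p = 0.979). Probe set 5464876 departed from the gene value: it read 9.31 and 9.10 in WT SLAM and 10.70 and 10.52 in mCG-PR SLAM, a difference of 1.40 ± 0.38 (SE, limma adjusted p = 0.789), and 10.12 to 10.52 in WT KLS. In KLS all 9 Casp8 probe sets were higher in mCG-PR, by 0.03 to 0.33, and none separated the groups. The gene value differed by 0.16 ± 0.14 (SE), where the median of all genes was 0.09.

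Casp9, the initiator of the apoptosome, had nearly the same mean in mCG-PR and WT KLS (a difference of −0.004 ± 0.147, SE). It read 6.75, 6.77, 6.91 and 7.25 in WT KLS, 6.83, 7.00 and 6.64 at 6 weeks and 7.10 and 7.02 at 13 weeks. The 13-week arrays lay above the 6-week arrays by 0.24 ± 0.19 (SE, limma adjusted p = 0.636), and 10.7% of all genes lay wholly higher in that comparison. In SLAM it read 6.59 and 7.03 in WT and 6.70 and 7.61 in mCG-PR, a difference of 0.34 ± 0.41 (SE, limma adjusted p = 0.939) that turned to −0.11 without the second mCG-PR SLAM array.

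Casp6, an executioner that cuts nuclear lamins, varied most on the SLAM arrays. It read 6.61, 6.76, 6.13 and 6.49 in WT KLS, 6.88, 6.89 and 6.60 in mCG-PR KLS of 6 weeks and 6.33 and 6.73 in those of 13 weeks. In SLAM it read 6.33 and 6.79 in WT and 6.54 and 5.11 in mCG-PR. The second mCG-PR SLAM array was the lowest of all 13, so the difference of −0.73 ± 0.53 (SE, limma adjusted p = 0.890) rested on a pair of arrays that differed from each other by more. In KLS the difference was 0.19 ± 0.16 (SE) over both ages and 0.29 ± 0.18 (SE) at 6 weeks. Its pooled SD within groups was 0.24 in KLS and 0.75 in SLAM.

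**Figure D4:**
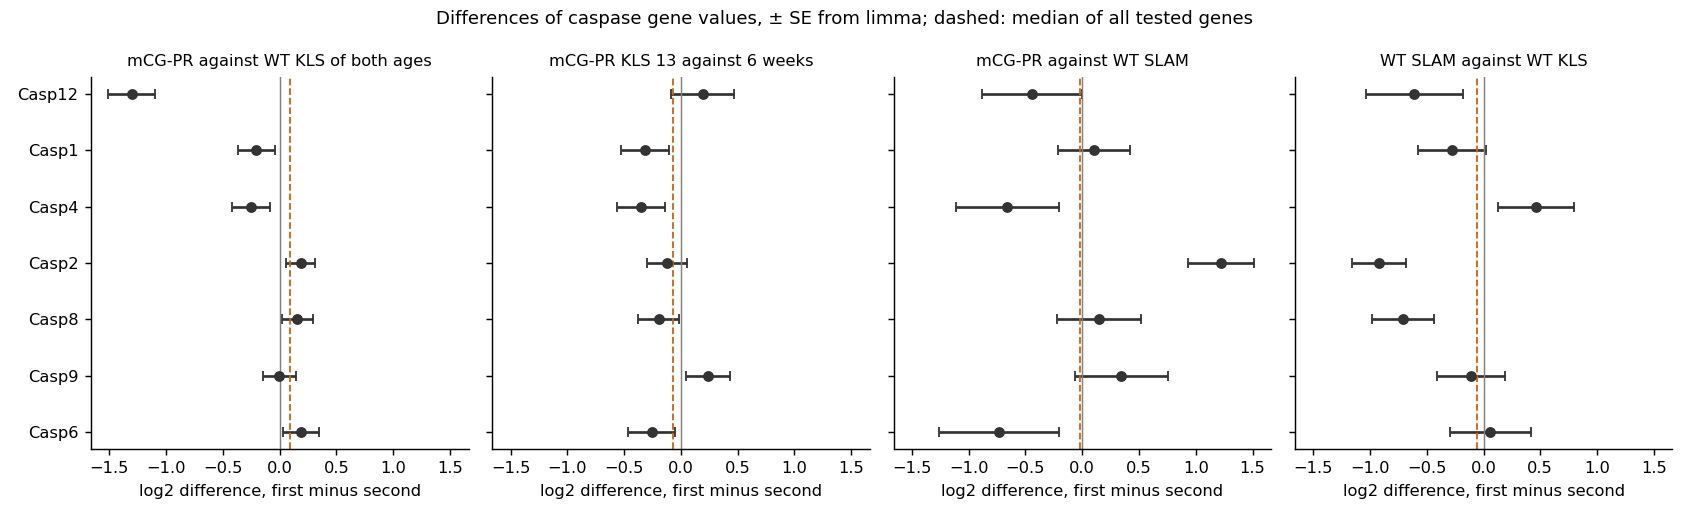
Log2 differences (x axis, first group minus second) of the 7 caspase genes (y axis) in 4 comparisons; points are limma estimates, bars ± SE and dashed lines the median of all tested genes. Casp2 lies at 1.22 between the SLAM genotypes and at −0.92 between the WT populations; the mCG-PR against WT KLS values, with Casp12 at −1.30, are a description.

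None of the 7 caspases passed between 13 and 6 weeks in mCG-PR KLS, where 0.00945% of all genes did (1 gene, with 1283 at an unadjusted p under 0.05). The limma adjusted p-values of the caspases lay between 0.514 and 0.821. Casp4 and Casp1 had the most negative values, −0.35 ± 0.21 and −0.32 ± 0.21 (SE), and overlapped between the ages.

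The partners of the caspases were read from 5 lists with 84 entries, of which 64 genes were tested. The lists covered death receptors and the apoptosome, caspase inhibitors, inflammasomes, executioner caspases with their substrates, and the endoplasmic reticulum stress response. In mCG-PR against WT KLS none of the 64 passed, where 0.0850% of all genes did, and 10 had an unadjusted p under 0.05 in limma, as did 12.1% of all genes. Of these 10, 5 were among the 11 inflammasome genes, 2 among the 8 inhibitors and 1 in each of the other lists. Inflammasome genes moved both ways. Aim2 averaged 10.43 in mCG-PR KLS against 10.93 in WT KLS, and Nlrp3 6.19 against 5.69. Most genes leaned higher in this comparison, with only 32.0% of all genes lower. Of the 25 stress response genes, 22 were higher and 3 lower, with a median difference of 0.17 against 0.09 over all genes. The medians of the other lists were 0.10 for death receptors and the apoptosome (12 tested, 7 higher), −0.01 for inhibitors (8 tested, 4 higher), 0.14 for inflammasomes (11 tested, 8 higher) and 0.04 for executioners and substrates (8 tested, 5 higher). Casp14, a caspase of the skin, did not pass the filter.

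Lower in WT SLAM than in WT KLS, past the threshold, were the inhibitor Xiap, the DNA sensor Aim2 and the substrate Parp1, a repair enzyme cut during apoptosis. Xiap, which binds and blocks Casp9, read 5.22 and 5.70 in WT SLAM and 8.07, 7.89, 7.68 and 8.14 in WT KLS. Its difference was −2.49 ± 0.32 (SE), or 5.60-fold lower (limma adjusted p = 9.89e-04). In mCG-PR SLAM it read 7.39 and 7.06, above both WT SLAM arrays and below all WT KLS arrays, but its genotype difference of 1.77 ± 0.33 (SE) did not pass (limma adjusted p = 0.729). Aim2, which recruits Casp1 through an adaptor, read 9.63 and 9.59 in WT SLAM and between 10.58 and 11.07 in WT KLS, a difference of −1.32 ± 0.29 (SE, limma adjusted p = 0.0251). Parp1 read 7.36 and 7.32 in WT SLAM and between 8.23 and 8.57 in WT KLS, a difference of −1.002 ± 0.233 (SE, limma adjusted p = 0.0314). With only 1 WT SLAM array, assumed to vary like the other groups, the differences hardly moved, at −1.34 and −1.30 for Aim2 and −1.02 and −0.98 for Parp1, but they no longer passed (limma adjusted p from 0.131 to 0.206).

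These 3 were the only ones of the 64 partners to pass there, all lower, where 2.77% of all genes passed lower and 0.350% higher. With these 3 counted in, the lists split about evenly or leaned lower in WT SLAM, where 54.9% of all genes were lower. Lower were 12 of 25 stress response genes, 4 of 8 inhibitors and 6 of 11 inflammasome genes. So were 8 of 12 death receptor and apoptosome genes and 7 of 8 executioner and substrate genes. The median was −0.15 over the 64 against −0.05 over all genes. Between the SLAM genotypes none of the 64 passed and 3 had an unadjusted p under 0.05, where 6.27% of all genes did. Between the ages none passed and 5 had an unadjusted p under 0.05, where 12.1% of all genes did.

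Outside the caspase lists, the genes whose values followed Casp12 most closely over the 13 arrays were Ss18, a chromatin remodelling subunit, the transcription factor Tfec, the histone gene H2aw, the leukotriene receptor Cysltr2 and the lysosomal protein Laptm4a. Their Pearson correlations with Casp12 were 0.82, 0.79, 0.78, 0.77 and 0.75, and their Spearman correlations 0.84, 0.75, 0.70, 0.85 and 0.75. The arrays share 5 groups and the genes were picked from 10584, so these values are a ranking only. With the mean of the probe sets in place of the median, the correlation stayed near its value for Cysltr2 (0.72) but was 0.46 for Ss18, 0.57 for Tfec, −0.09 for H2aw and 0.17 for Laptm4a. The 2 arrays farthest from the Casp12 median were WT KLS replicates 1 and 2. Without them the correlation was 0.82 for Ss18, 0.69 for Tfec, 0.72 for H2aw, 0.62 for Cysltr2 and 0.59 for Laptm4a. The other caspases lay between −0.27 (Casp2) and 0.17 (Casp4).

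Marker lists of other cell types were read beside the Casp12 values on the KLS arrays. The plasmacytoid dendritic cell list, 5 of 6 genes measured, had a higher mean in mCG-PR for all 5, and 4 of them did not overlap (3.55% of all genes lay wholly higher). It averaged 7.55 to 8.06 in mCG-PR KLS and 6.84 to 7.42 in WT KLS. Siglech, its defining gene, was 7.57 ± 0.39 (SD, n = 5) against 6.21 ± 0.25 (SD, n = 4). The mast cell and basophil list, 8 of 8 measured and 4 above the filter, overlapped, at 5.88 to 6.87 against 5.40 to 6.09, with 6 of the 8 means higher in mCG-PR. Mcpt8 was its only gene whose groups did not overlap, at 8.45 ± 0.85 (SD, n = 5) against 6.85 ± 0.16 (SD, n = 4). The late neutrophil list averaged 7.997 to 8.976, a range that contains the 8.51 to 8.67 of WT. Of its 10 genes, 8 had a lower mean in mCG-PR and 2 a higher one. S100a8 was its only gene that lay wholly lower (0.652% of all genes did). It was 10.71 ± 0.45 (SD, n = 5) against 11.99 ± 0.24 (SD, n = 4). The stromal and endothelial list had 9 of 9 genes measured and 6 above the filter. Like the dendritic cell list it lay wholly higher, at 6.25 to 6.42 against 6.02 to 6.20. Of its genes, 8 had a higher mean in mCG-PR, but none separated the groups. The T and NK cell list had 7 of 8 means higher and overlapped, as did the macrophage, B cell, erythroid and megakaryocyte lists. The long-term stem cell list averaged 7.39 to 7.55 against 7.61 to 7.88, with all 8 means lower in mCG-PR and all 8 genes overlapping. Their part in the Casp12 difference was not tested, and in bulk RNA fewer cells of a type and less RNA per cell cannot be told apart.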

How the data were processed

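RNA from sorted marrow was measured on Affymetrix Mouse Exon 1.0 ST arrays after amplification of 20 ng of total RNA, per the labels. The authors deposited 1 linear intensity per probe set and array (229581 by 13), made with RMA on mm9 per the submitters' processing notes; the RMA version is not stated there. Probe sets were named through the platform's annotation, updated with RefSeq symbols (2105 updated, 62 kept): 208397 had 1 gene, 3965 several and 17219 none listed. Log2 was taken, a gene's value was the median of at least 3 single-gene probe sets, and genes above the 30th percentile of mean value were tested. limma 3.58.1 in R 4.3.3 gave two-sided moderated tests, with Benjamini-Hochberg adjustment over all 10584 genes (or 145878 probe sets) and a threshold of 0.05. KLS comparisons used the 9 KLS arrays, mCG-PR against WT SLAM the 4 SLAM arrays, and WT SLAM against WT KLS all 13 with weights by population. The fits were tested on simulated data. The number of arrays limits the precision. p-values measure the spread between single mice.

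The members and lists were chosen with earlier results of these data known. The named genes were the 7 members in every group, up to 4 passing genes per list and comparison, Casp14, the 5 genes most correlated with Casp12, its RefSeq neighbours, and Ctsg, Pml and Rara; other items of the rule are not reported here. Promoter windows came from RefSeq (GRCm38.p6); no protein sequence was used here. Alternatives changed the probe set summary, scaling, filter, arrays fitted, controls, replicate block and each single array.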

Additional observations from a re-analysis of the deposited data

Results flagged for a closer look

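The Casp6 gene value lay on opposite sides of its WT mean in SLAM cells and in KLS cells of 6 weeks. Both mCG-PR SLAM arrays, at 6.54 and 5.11, lay below the WT SLAM mean of 6.56, and all 3 mCG-PR KLS arrays of 6 weeks, at 6.88, 6.89 and 6.60, lay above the WT KLS mean of 6.50. In KLS of 13 weeks the difference was only 0.03, with 1 array, at 6.33, below the WT mean and 1, at 6.73, above it. The SLAM difference minus the KLS difference of 6 weeks was −1.03 on the log2 scale. Of the 8 Casp6 probe sets, 7 were lower and 1 higher in mCG-PR SLAM. In mCG-PR KLS of both ages 5 were higher and 3 lower. The brightest, 5324720, was higher in both populations. It read 8.215 and 9.40 in mCG-PR SLAM against 6.71 and 7.56 in WT SLAM, without overlap (17.9% of all probe sets). Its KLS difference over both ages was 0.57, with overlap. The difference between the populations was not tested, the first SLAM array was only just below its control mean, and the ranges of mCG-PR and WT overlapped in both populations.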

How the results depend on the processing

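The Casp12 difference in KLS kept its sign under every alternative run: −0.64 with the mean of the probe sets, −0.64 with only the bright ones, −1.36 and −1.38 with array medians subtracted or quantile normalisation, −1.04 and −1.57 against the WT KLS arrays of 12 or 13 weeks alone, and −1.19 to −1.42 leaving out 1 array. Casp12 did not pass a filter at the 50th percentile. Same-numbered arrays shared little deviation from their group means (correlations from −0.04 to 0.08), which cannot show whether mice were paired. With the replicate block the Casp12 difference was −1.40 and the Casp2 call between WT SLAM and WT KLS was lost (limma adjusted p = 0.107).

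Between WT SLAM and WT KLS, 0 members passed with bright probe sets, array medians subtracted, quantile normalisation, the 50th percentile filter, the replicate block, either pair of WT KLS arrays alone, or leaving out any 1 of the arrays compared (0 to 0), against 1 as reported. Of the member probe sets, 0 passed with the replicate block or either pair of WT KLS arrays, and 3 with all 13 arrays unweighted or the compared arrays only, against 1. Partner genes numbered 9 with all arrays unweighted, 6 with the compared arrays only and 1 with WT KLS replicates 3 and 4 alone, and 1 to 3 leaving out 1 array, against 3. Between the SLAM genotypes, all 13 arrays unweighted gave 1 member (Casp2, adjusted p = 0.00997), 4 member probe sets and 2 partner genes, against 0 of each; that fit called 275 genes, against 0. Over all genes, mCG-PR against WT KLS gave 9 calls, 0 to 41 leaving out 1 array, 22 with bright probe sets, 1 with the replicate block and 0 with all arrays unweighted; WT SLAM against WT KLS gave 330, 1229 unweighted, 944 with the compared arrays only and 94 to 334 leaving out 1 array.

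Signs turned as follows, none of these values passing a test; ranges are over leaving out 1 array. In mCG-PR against WT SLAM, Casp1 was −0.31 with the mean of probe sets and ranged from −0.092 to 0.295, Casp8 from −0.188 to 0.485 and Casp9 from −0.106 to 0.795; the negative values came without WT SLAM replicate 2 or mCG-PR SLAM replicate 1 for Casp1, without either replicate 1 for Casp8 and without mCG-PR SLAM replicate 2 for Casp9. In 13 against 6 weeks, Casp12 was −0.22 with the mean of probe sets and −0.039 with bright ones and ranged from −0.171 to 0.553, Casp2 ranged from −0.250 to 0.0038, with the turned sign of both without the second 13-week array, and Casp9 was −0.25 with bright probe sets. In WT SLAM against WT KLS, Casp12 was 0.089 with bright probe sets. Casp6 there was −0.11 with the mean, −0.081 with the replicate block and −0.13 with WT KLS replicates 1 and 2 alone, and ranged from −0.169 to 0.290, negative without WT KLS replicate 3 (−0.062) or WT SLAM replicate 2. Casp9 there was 0.048 with WT KLS replicates 1 and 2 alone and ranged from −0.331 to 0.109, positive without WT SLAM replicate 1. The cause was not tested. The correlations with the mean of probe sets, array medians subtracted and quantile normalisation were chosen after seeing the data.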
